A study of Mus musculus with 12 samples.

Results

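The mouse genes for chemokines and chemokine receptors were followed in 2 mammary tumor cell lines, each grown flat and in a basement-membrane gel. The members are the rows of the series table of transcript levels that are annotated as protein-coding and carry a chemokine or receptor symbol (Ccl, Cxcl, Cx3cl1, Xcl1, Ccr, Cxcr, Cx3cr1 or Ackr with its number). There were 58 of them among 52550 genes, of which 21950 were protein-coding: 37 ligands, 17 conventional receptors and 4 atypical receptors. The rule itself uses names and annotation, and no measured value.

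D2A1 and D2.OR are mouse mammary cancer lines that arose from separate tumors of the same type. In gel culture D2A1 proliferates and D2.OR is used as a model of dormancy. Each line was kept for a week either in 2D on plastic or in 3D as Matrigel-on-top (MoT), that is, plated on growth-factor-reduced Matrigel with some Matrigel added to the medium. The 3D medium held horse serum, hydrocortisone, cholera toxin and insulin. The study's methods name this medium for 2D cells in one place and DMEM high glucose in another. For the sequenced cells they point to the section with DMEM high glucose, which does not describe the gel culture. Whether the cultures sequenced here also differed in medium is thus not fully clear from them. This gave 4 groups, D2A1 2D, D2A1 3D, D2.OR 2D and D2.OR 3D, with 3 RNA-seq libraries in each and 12 in all. Several culture wells were pooled for each RNA sample. The replicate number is also the batch number, and since no batch shared its lane with another, batch and lane cannot be told apart. Each line is a single established line, so a difference between D2A1 and D2.OR describes these lines and not dormancy in general.

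Chemokines are small secreted proteins that draw cells along a concentration gradient by binding receptors that signal through inhibitory G proteins. They are sorted by the spacing of their first cysteines into CC, CXC, CX3C and XC families, and CXC ligands with the ELR motif (glutamate, leucine, arginine) before the cysteines attract neutrophils through Cxcr2. Atypical receptors bind chemokines without G-protein signalling and take them up, which shapes the gradient. In mammary tumors, ligands made by the cancer cells are known to recruit neutrophils, monocytes and lymphocytes, whereas most of the receptors sit on leukocytes.

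Total expected counts ran from 47589611 to 73325069 per library (median 61747126). The defining leukocyte markers were at or near 0, as all 7 of those listed, among them Ptprc, Adgre1, Csf1r and Lyz2, were under 1 TPM (a level scaled for gene length and library size) in every library, and their summed level ran from 0.02 to 0.10 TPM in D2A1 2D, 0.16 to 0.76 in D2A1 3D, 0.16 to 0.25 in D2.OR 2D and 0.16 to 0.43 in D2.OR 3D. All 3 endothelial markers were also under 1 TPM throughout (summed level 0.09 to 0.42 TPM over the libraries). Of 6 mammary epithelial markers, Krt8 had a mean of 859 ± 161 TPM (SD, n = 3) in D2.OR 2D and 353 ± 156 in D2.OR 3D but only 1.27 ± 0.65 in D2A1 2D and 1.39 ± 0.81 in D2A1 3D, Epcam and Cdh1 were under 1 TPM in every D2A1 library, and Krt5 was at or near 0 in all 12. The summed level of the list ran from 205 to 297 TPM in D2A1 2D, 94 to 220 in D2A1 3D, 1160 to 1720 in D2.OR 2D and 422 to 877 in D2.OR 3D, so the epithelial label rests on Krt18 alone in D2A1. The 6 fibroblast genes, led by Pdgfra and Pdgfrb, summed to 57 to 75.5 TPM in D2A1 2D, 28.5 to 43.7 in D2A1 3D, 179 to 336 in D2.OR 2D and 117 to 318 in D2.OR 3D, and 2 of them were under 1 TPM in every library. The part of these differences in the results below was not tested.

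Of the 58 members, 31 were detected, which here means more than 3 counts in every library of at least 1 group, and 18 of these were detected in all 4 groups. The number was 21 in D2A1 2D, 26 in D2A1 3D, 24 in D2.OR 2D and 25 in D2.OR 3D. Ligands made up most of it, with 21 of 37 ligands, 7 of 17 conventional receptors and 3 of 4 atypical receptors detected. They were the 29 members in the map of levels below but for Ccr1, together with Ccl3, Ccl8 and Ccr9. Of the conventional receptors, 2 reached a group mean of 1 TPM, against 18 ligands: Ccr10, and Ccr1, which had 1 count in each library of batch 1 and so was detected in no group by this rule. At 0 counts in every library were 8 members: Cxcr1, Ccr8, Ackr1, Ccl12, Ccl21a, Ccl21b, Ccl26 and Ccl27b. A count of 0 allows up to 3 counts, or 0.0425 to 0.0607 CPM (counts scaled to the library total) depending on the library, and covers counting error only. A further 21 members had some counts but stayed below the filter for testing, with at most 32 counts and 1.47 TPM in any library. Among them were the ligands Ccl1, Ccl3, Ccl4, Ccl6, Ccl8, Ccl11, Ccl19, Ccl22, Ccl24, Cxcl13, Cxcl14, Cxcl17 and Xcl1, and the receptors Ccr3, Ccr4, Ccr6, Ccr9, Cxcr2, Cxcr4 and Cx3cr1.

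Several receptors of the ligands described below were at or near the limit of detection. Cxcr2, the receptor of the ELR ligands, had at most 3 counts in a library, Cxcr4, the receptor of Cxcl12, at most 7, and Cx3cr1, the receptor of Cx3cl1, at most 6. Among the ligands below the filter, Ccl4 had no count in any of the 6 D2A1 libraries and 1 to 8 in those of D2.OR. Cxcl17 had 32 counts in D2.OR 2D replicate 1 and at most 4 in each of the other 11 libraries.

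**Figure D1:**
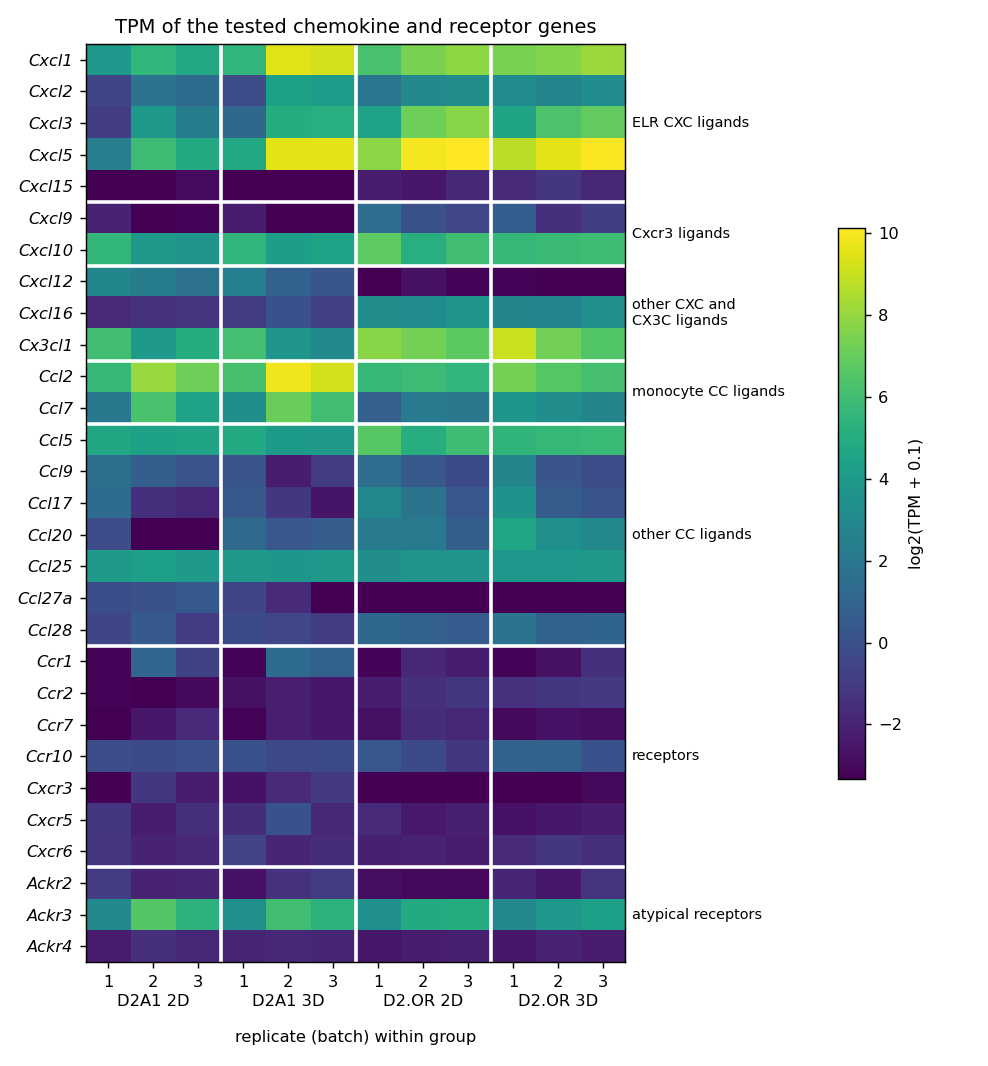
Level of the 29 tested members in the 12 libraries, as log2(TPM + 0.1) in colour, with genes in rows by role and libraries in columns by group and replicate. The brightest rows are Cxcl1, Cxcl5, Ccl2 and Cx3cl1, the receptor rows are dark apart from Ackr3, and Cxcl12 and Ccl27a are dark in all 6 D2.OR libraries.

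A few ligands carried most of the chemokine transcripts. The 37 ligands summed to 372 ± 161 TPM (SD, n = 3) in D2A1 2D, 1707 ± 1214 in D2A1 3D, 1460 ± 554 in D2.OR 2D and 1581 ± 196 in D2.OR 3D. By library the sum was 243, 552 and 321 TPM in D2A1 2D, 338, 2651 and 2131 in D2A1 3D, 837, 1643 and 1900 in D2.OR 2D, and 1488, 1449 and 1806 in D2.OR 3D. The 3D library of D2A1 from batch 1 thus lay with the 2D libraries of that line. Ccl2 was the largest single part in D2A1 2D replicates 2 and 3 (48.9% and 44.7% of the summed ligand TPM), and Cx3cl1 in replicate 1 (26.3%). In D2A1 3D the largest part was Ccl2 in replicates 1 and 2 (22.4% and 34.7%) and Cxcl5 in replicate 3 (35.8%), with Cxcl5 at 28.6% in replicate 2. In D2.OR, Cxcl5 made up 26.4% to 60.7% of the sum in 2D and 28.6% to 59.5% in 3D, and it was the largest part in each library but D2.OR 3D replicate 1, where Cx3cl1 made up 35.2%.

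The comparison of D2.OR with D2A1 asks how the lines differ within a culture. Of the 29 members that passed the filter on low counts, 13 were higher and 7 lower in D2.OR in 2D (edgeR's quasi-likelihood test with batch as a term, Benjamini-Hochberg adjusted p under 0.05 over 16823 genes), where 25.4% of all tested genes were higher and 24.4% lower (49.8% in either direction). In 3D, 13 were higher and 5 lower, against 27.7% and 26.1% of all genes (53.8% in either direction). The median log2-fold change over the tested members was 1.04 in 2D and 0.20 in 3D, and -0.003 and 0.001 over all tested genes. Without batch 1, with 32 members tested, it was 0.134 in 2D and 0.235 in 3D, and 0.027 and 0.01 over all genes. The medians on all 12 libraries were the same with the members that are at the floor of 3 counts in a group set to the limit that counting allows. Those members stayed on their side of the median, so this step could not have moved it. In 2D, 12 of 19 ligands were higher and 3 lower, and in 3D 11 were higher and 1 lower. (Without batch 1, 11 of 21 ligands were higher and 4 lower in 2D, and 11 were higher and 7 lower in 3D. Of all genes, 28.6% were then higher and 25.2% lower in 2D, and 29.7% and 27.2% in 3D.) Of 10 receptors, atypical ones included, 1 was higher and 4 lower in 2D, and 2 were higher and 4 lower in 3D, shares called near those of all genes. Ligands and receptors were not tested against each other. In both cultures 14 members passed the test, 11 higher in D2.OR each time (Cxcl3, Cxcl9, Cxcl10, Cxcl15, Cxcl16, Cx3cl1, Ccl5, Ccl17, Ccl20, Ccl28 and Ccr2) and 3 lower (Cxcl12, Ccr1 and Cxcr3). Of all tested genes, 20.3% were called higher and 17.8% lower in D2.OR in both cultures. Of the 29 members, 6 passed the filter through libraries of 1 line alone. These were Cxcl12, Ccl27a, Cxcr3, Ackr2 and Ackr4 through D2A1 and Cxcl15 through D2.OR. They were tested only because they were higher in that line, and the counts here include them. Cxcl9, Ccl17 and Ccr2 were over the filter in 6 D2.OR libraries but in only 2 of D2A1, and Ccr1 in 4 of D2A1 but 2 of D2.OR. In bulk RNA, a smaller share of cells that express a gene and less RNA per cell cannot be told apart.

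The call depended on the batch term for a few of them. Without it, Cx3cl1 (adjusted p = 0.0534), Ccl17 (0.172) and Ccr1 (0.179) were no longer called in 2D. The same held in 3D for Ackr3 (0.154), Cxcl3 (0.268), Cxcl10 (0.113), Ccl17 (0.0797), Ccr1 (0.0891) and Ccr10 (0.0739). Leaving out D2A1 2D replicate 2 brought the number of members called in 2D from 20 to 13, and the share of all genes called from 49.8% to 39.6%. Without batch 1, Cxcl15, Ackr4 and Ccl28 in 2D and Cxcr5 and Ccr10 in 3D were no longer called. More calls were lost without batch 2 or batch 3, where 24.9% and 31.8% of all genes were called in 2D. In 2D these included Cxcl1 and Cxcl10 without batch 3.

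**Figure D2:**
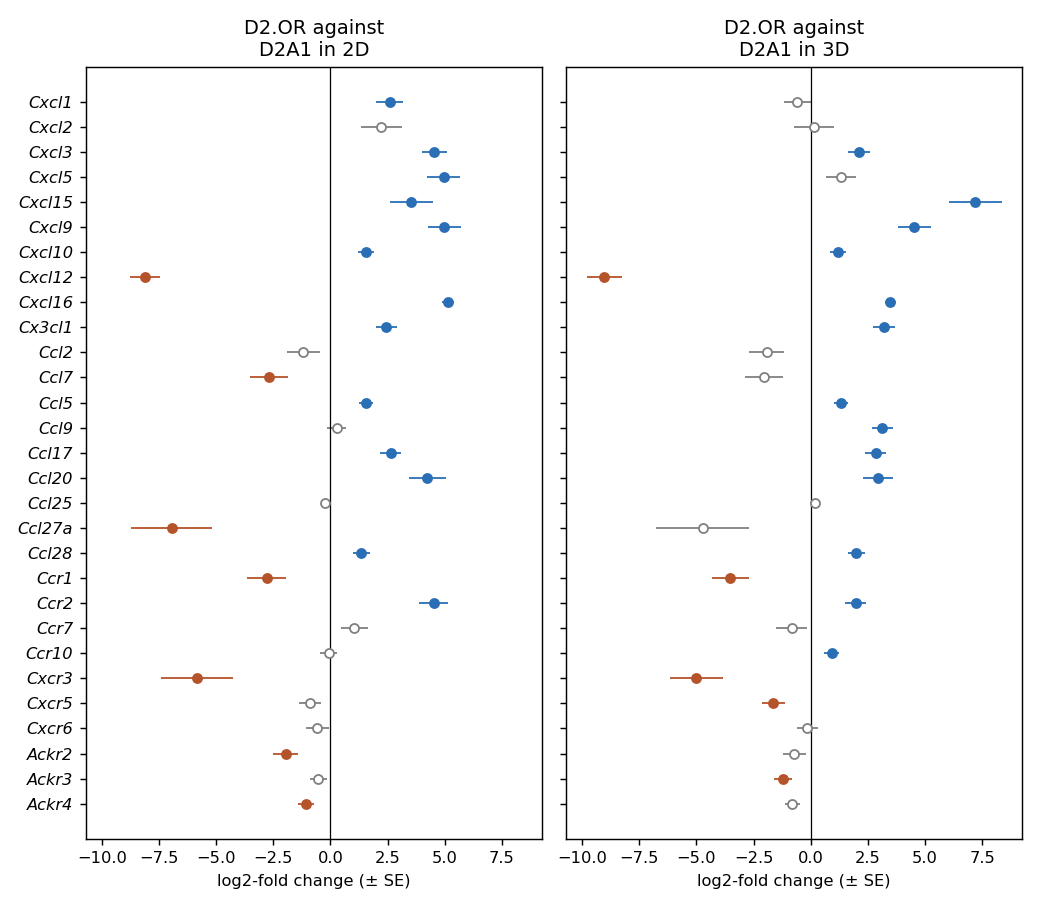
Log2-fold change of D2.OR against D2A1 for the 29 tested members, in 2D on the left and in 3D on the right, with bars of 1 SE from the edgeR fit. Filled points passed an adjusted p of 0.05 (blue higher and brown lower in D2.OR), and open grey points did not. Cxcl1 and Cxcl5 were called in 2D and not in 3D, and Cxcl12 had the lowest value in both panels.

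The neutrophil-attracting ELR ligands included Cxcl5, the member with the highest mean TPM in both D2.OR groups. Of the 5, 4 were higher in D2.OR in 2D (Cxcl1, Cxcl3, Cxcl5 and Cxcl15) and 2 in 3D (Cxcl3 and Cxcl15), where 25.4% and 27.7% of all genes were higher. Their genes lie together on chromosome 5 (GRCm38 chr5:90759360-90905938), in the order Cxcl5, Cxcl3, Cxcl15, Cxcl1 and Cxcl2. The first 3 of the promoters below are those of Cxcl1, Cxcl2 and Cxcl3, shown because these neighbours share a stretch of letters, and Ccl20, a ligand from another chromosome, is set beside them. Sequences are from RefSeq on GRCm38.p6, 5′ to 3′ on the strand of the gene and ending before the first base of the gene in either annotation, with matches to the searched motifs in capitals.
Cxcl1, chr5:90891025-90891240, plus strand: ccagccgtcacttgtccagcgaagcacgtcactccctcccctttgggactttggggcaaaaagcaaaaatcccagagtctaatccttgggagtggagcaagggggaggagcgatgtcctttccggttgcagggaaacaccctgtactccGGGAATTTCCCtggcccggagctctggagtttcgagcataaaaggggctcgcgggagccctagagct
Cxcl2, chr5:90903679-90903870, plus strand: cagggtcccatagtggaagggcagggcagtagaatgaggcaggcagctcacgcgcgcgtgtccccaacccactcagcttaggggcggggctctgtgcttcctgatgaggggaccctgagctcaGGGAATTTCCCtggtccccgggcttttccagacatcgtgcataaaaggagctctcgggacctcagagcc
Cxcl3, chr5:90785881-90786100, plus strand: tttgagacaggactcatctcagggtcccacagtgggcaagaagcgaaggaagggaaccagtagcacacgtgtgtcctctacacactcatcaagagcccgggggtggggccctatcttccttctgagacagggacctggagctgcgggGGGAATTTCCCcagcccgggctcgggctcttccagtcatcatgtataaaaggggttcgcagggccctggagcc
Ccl20, chr1:83116546-83116765, plus strand: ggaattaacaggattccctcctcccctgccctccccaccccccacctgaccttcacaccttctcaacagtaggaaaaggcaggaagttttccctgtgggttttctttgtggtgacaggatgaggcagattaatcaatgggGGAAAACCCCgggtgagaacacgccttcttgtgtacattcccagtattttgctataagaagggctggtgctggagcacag

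The motifs were searched on both strands in the 250 bases before each start. They were the consensus of NF-kB, a factor that acts on many inflammatory genes, and 1 exact form of it (the first 10 of the capital letters that Cxcl1, Cxcl2 and Cxcl3 share above). The others were the interferon-response type (GAAA, any 2 bases and GAAA) and TGANTCA, a wide form of the AP-1 site with any base in the middle. A window was at hand for 44 of the 58 members, and those without one included Cxcl5, Cxcl16, Ccl2, Ccl4, Ccl5, Ccl7, Ccl11, Ccl24, Ccl26, Cxcl17, Ccr7, Ccr10 and Cxcr5. The NF-kB consensus was in 11 of the 44 (Cxcl1, Cxcl2, Cxcl3, Cxcl10, Ccl1, Ccl9, Ccl20, Ccr1, Ccr3, Ccr6 and Ackr2) and in 8.23% of 27025 genes with a window. The exact form, every match of which is also a match of the consensus, was in 4 (Cxcl1, Cxcl2, Cxcl3 and Ccr3) and in 0.104% of all. Its first base stood 71 bases before the RefSeq start in Cxcl1, 97 in Cxcl2 and 73 in Cxcl3. The RefSeq start lies 4 bases further into the gene than that of the series' annotation in Cxcl1 and 28 in Cxcl2, and the printed sequences end before the earlier of the starts. The interferon-response type was in 3 of the 44 (Ccl19, Cxcl10 and Cxcl14) and in 3.46% of all, and TGANTCA in 6 (Ccl9, Ccl27a, Ccl27b, Ccr3, Ccr4 and Cxcl10) and in 7.82%. A match is a description of these letters and not of binding.

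Cxcl5 ranked first in mean TPM in D2.OR, and Ccl2 did in D2A1, though in D2A1 3D Ccl2 and Cxcl5 were apart by far less than the spread between libraries. The Cxcl5 level was 5.31, 60.6 and 30.1 TPM in D2A1 2D replicates 1 to 3, 28.1, 757 and 762 in D2A1 3D, 221, 997 and 1123 in D2.OR 2D, and 425, 754 and 1074 in D2.OR 3D. All D2.OR 2D libraries lay above all D2A1 2D libraries, whereas in 3D the groups overlapped. The log2-fold change (here and below ± SE) was 4.95 ± 0.72 in 2D (adjusted p = 0.000497) and 1.31 ± 0.65 in 3D (adjusted p = 0.115).

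Cxcl1 stood at 14.4, 45.6 and 27.3 TPM in D2A1 2D, 46.0, 723 and 596 in D2A1 3D, 76.5, 170.5 and 234 in D2.OR 2D, and 174, 199 and 278 in D2.OR 3D. The groups were apart in 2D (2.59 ± 0.60, adjusted p = 0.00622), while in 3D batches 2 and 3 of D2A1 lay above D2.OR and batch 1 below it (-0.60 ± 0.59, adjusted p = 0.413). Without batch 1 it was lower in D2.OR in 3D (-1.46, adjusted p = 0.0036), as it was without D2A1 3D replicate 1 alone (-1.29, adjusted p = 0.00822), where 27.2% of all genes were lower without batch 1. Cxcl3 was measured at 0.45, 15.2 and 5.06 TPM in D2A1 2D, 2.19, 31.7 and 36.2 in D2A1 3D, 21.6, 142 and 218 in D2.OR 2D, and 22.9, 84.2 and 121 in D2.OR 3D. It was higher in D2.OR in each batch of both cultures, by 4.54 ± 0.55 in 2D (adjusted p = 0.000181), where the lines did not overlap, and by 2.12 ± 0.49 in 3D (adjusted p = 0.00539), where they did. Without D2A1 2D replicate 2 the value in 2D was 5.54.

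Cxcl2 was less abundant than Cxcl1, Cxcl3 and Cxcl5 by mean TPM in each group, with 0.59, 3.45 and 2.48 TPM in D2A1 2D, 0.75, 20.2 and 17.3 in D2A1 3D, 3.82, 7.89 and 9.95 in D2.OR 2D, and 9.22, 6.50 and 9.24 in D2.OR 3D. Its 2D groups did not overlap, but the difference of 2.22 ± 0.90 missed the threshold (adjusted p = 0.0679), and in 3D it was 0.15 ± 0.88 (adjusted p = 0.898). Without batch 1 Cxcl2 was called higher in D2.OR in 2D (1.74, adjusted p = 0.00987), where 28.6% of all genes were higher, and lower in 3D (-1.11, adjusted p = 0.0377), so that its direction in 3D turned. The 2D difference was also called by DESeq2 (adjusted p = 0.0089), on the 6 libraries of 2D alone (0.0235), and without D2A1 3D replicate 1 (0.0125) or D2.OR 3D replicate 1 (0.0332). Cxcl2 and Cxcl3 had expected counts that were not whole (largest fractional part 0.29 for each), as did Cxcl16 (0.5) and Ackr4 (0.41), described below. Which sequences shared such reads was not tested. Cxcl15, a neutrophil attractant known from lung epithelium, was near the limit of detection: D2A1 had 0, 0 and 2 counts in 2D and none in 3D, and D2.OR had 9, 5 and 12 in 2D and 14, 26 and 15 in 3D. The ratio of D2.OR to D2A1 was 12.8 in 2D, with an exact 95% interval of 3.21 to 111 from counting error only, and D2.OR was at least 6.33-fold higher in 3D, set against 3 counts per library. The test called Cxcl15 in both cultures (adjusted p = 0.0182 and 0.00174), but its fitted changes of 3.53 and 7.20 depend on the prior count and are no bound, as holds for every gene at or near 0 in a group. They moved by over 1.5 times without D2A1 2D replicate 3 (6.20) and, in 3D, without D2.OR 3D replicate 2 or 3 (7.87 at the widest). In 2D it was not called without D2A1 2D replicate 2 or D2.OR 2D replicate 3 (adjusted p up to 0.0751), nor with limma on log2(TPM + 1) (0.0823).

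**Figure D3:**
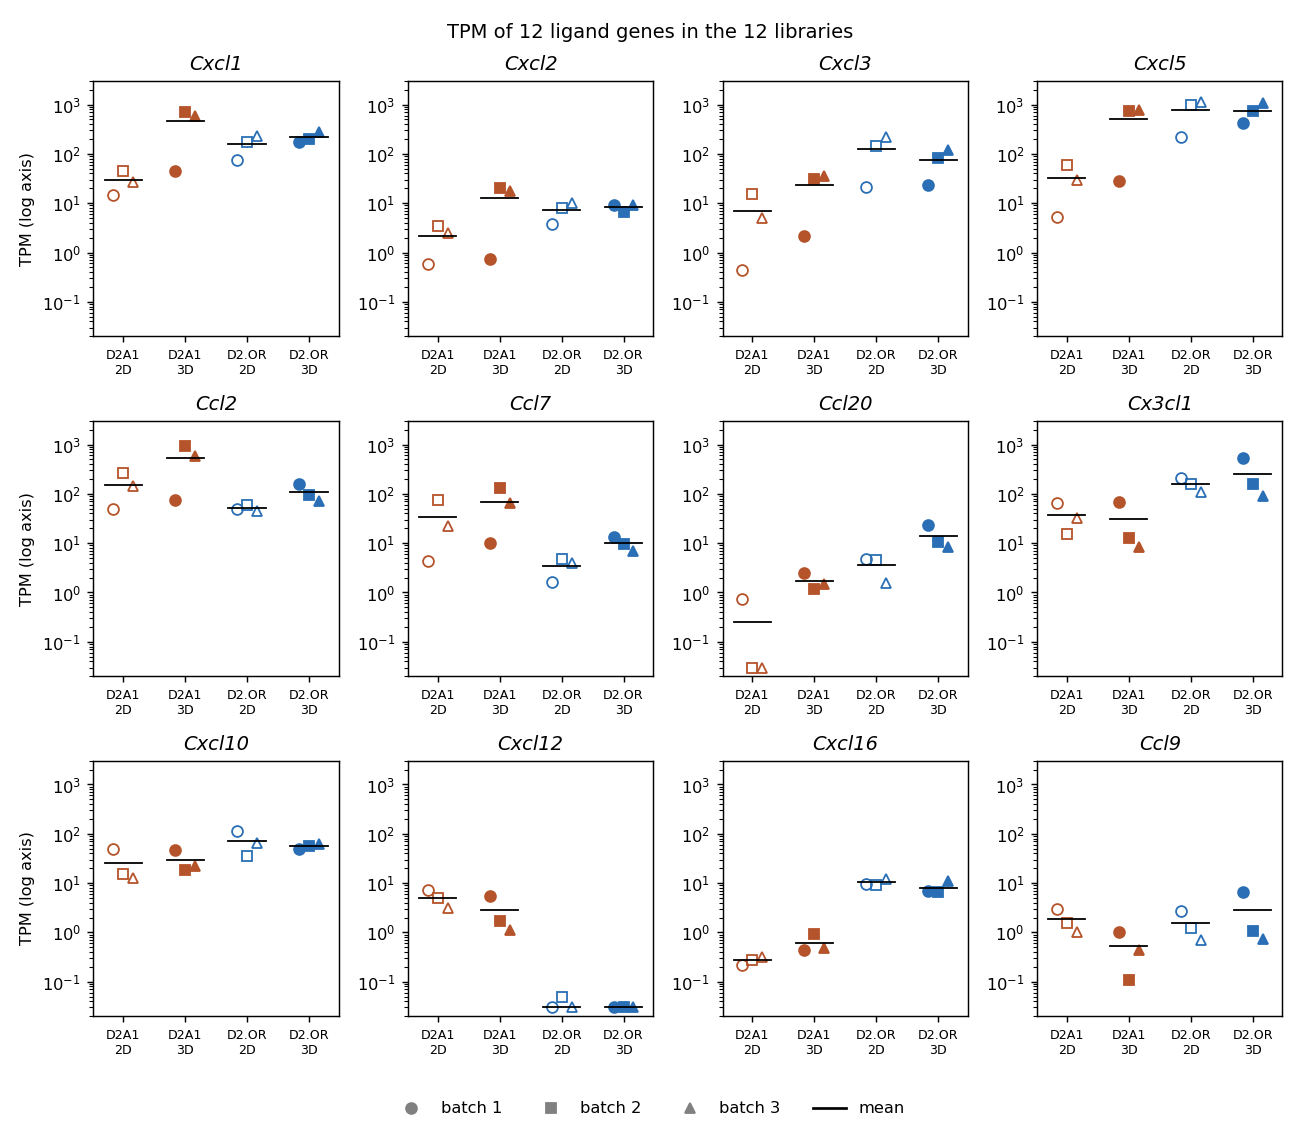
TPM of 12 ligand genes in each library, on a log axis, by group, with batches as circles, squares and triangles, D2A1 in brown and D2.OR in blue, 2D open and 3D filled, and the mean of 3 as a line. Values under 0.03 TPM are drawn at 0.03. For Cxcl1, Cxcl2, Cxcl3 and Cxcl5 the batch 1 circle of D2A1 3D lies with the D2A1 2D points, and for Cxcl16 and Cxcl12 the lines are apart in every batch.

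Cxcl9 and Cxcl10, interferon-induced ligands of Cxcr3 that draw activated T cells and NK cells, were higher in D2.OR in both cultures, as were 20.3% of all tested genes. Their genes are neighbours on chromosome 5 (GRCm38 chr5:92321347-92348889). The promoter of Cxcl10 is shown because it alone among the 44 holds matches to the NF-kB consensus, the interferon-response type and TGANTCA together.
Cxcl10, chr5:92348890-92349109, minus strand: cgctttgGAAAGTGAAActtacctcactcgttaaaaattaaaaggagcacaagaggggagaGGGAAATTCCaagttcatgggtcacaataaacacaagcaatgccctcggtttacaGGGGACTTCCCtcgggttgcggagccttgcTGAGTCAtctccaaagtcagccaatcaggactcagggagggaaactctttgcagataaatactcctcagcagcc

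Cxcl10 stood at 48.3, 15.5 and 12.9 TPM in D2A1 2D, 46.1, 18.7 and 22.3 in D2A1 3D, 111, 35.5 and 64.8 in D2.OR 2D, and 49.0, 57.8 and 61.4 in D2.OR 3D. D2.OR was above D2A1 in each batch, by 1.56 ± 0.34 in 2D (adjusted p = 0.00467), where the groups overlapped through the high D2A1 library of batch 1, and by 1.20 ± 0.34 in 3D (adjusted p = 0.0148). The 3D call was lost without any 1 of the 4 libraries of batches 2 and 3 in 3D (adjusted p 0.054 to 0.074). Cxcl9 was far lower, at 0.15, 0.00 and 0.01 TPM in D2A1 2D, 0.11, 0.00 and 0.00 in D2A1 3D, 2.82, 0.92 and 0.62 in D2.OR 2D, and 1.55, 0.27 and 0.46 in D2.OR 3D. No D2A1 library reached any D2.OR library, and the changes were 4.98 ± 0.71 (adjusted p = 0.000452) and 4.54 ± 0.72 (adjusted p = 0.000748). They rose to 6.39 without D2A1 2D replicate 1 and to 7.91 without D2A1 3D replicate 1, which hold nearly all of the D2A1 counts, and the 3D value also moved by over 1.5 times without D2.OR 3D replicate 1. Their receptor Cxcr3 went the other way and is described below. Cxcl10 overlaps Art3 on the opposite strand, which was at 0.45 TPM or less in every library.

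Cxcl12 is the ligand of Cxcr4 that holds stem cells in the bone marrow, and here it had the lowest log2-fold change of the tested members in both cultures. D2A1 had 481, 396 and 252 counts in 2D and 553, 167 and 143 in 3D, whereas D2.OR had 0, 3 and 1 in 2D and 1, 0 and 0 in 3D. In TPM this was 7.08, 4.87 and 3.16 in D2A1 2D and 5.55, 1.72 and 1.13 in D2A1 3D, against at most 0.05 in D2.OR. The D2A1 to D2.OR ratio was 287 in 2D (exact 95% interval 112 to 1050) and 794 in 3D (142 to 31400), from counting error only. The fitted values were -8.11 ± 0.66 (adjusted p = 1.84e-05) and -9.04 ± 0.76 (adjusted p = 2.09e-05). They ranged from -9.64 to -6.89 in 2D and from -10.41 to -8.55 in 3D when a library was left out, and moved by over 1.5 times without D2.OR 2D replicate 1 or 2 or D2.OR 3D replicate 1.

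The membrane-anchored ligands Cxcl16, which binds Cxcr6, and Cx3cl1, which binds Cx3cr1, were both higher in D2.OR. Cxcl16 had 0.22, 0.28 and 0.31 TPM in D2A1 2D, 0.43, 0.94 and 0.48 in D2A1 3D, 9.73, 9.34 and 12.2 in D2.OR 2D, and 6.90, 6.45 and 10.8 in D2.OR 3D. The lines were far apart in every batch, by 5.16 ± 0.27 in 2D (adjusted p = 1.22e-06) and 3.47 ± 0.24 in 3D (adjusted p = 6.35e-06), the smallest adjusted p among the members in each culture. Zmynd15, which overlaps Cxcl16 on the opposite strand, had a mean of 0.43 ± 0.08 TPM in D2.OR 2D and 0.06 ± 0.05 in D2A1 2D (SD, n = 3) and at most 0.60 TPM in any library. Cx3cl1 measured 63.8, 15.7 and 32.2 TPM in D2A1 2D, 69.8, 12.8 and 8.23 in D2A1 3D, 213, 159 and 107 in D2.OR 2D, and 524, 156 and 90.05 in D2.OR 3D. The lines did not overlap in either culture, and the change was 2.43 ± 0.46 in 2D (adjusted p = 0.00226) and 3.20 ± 0.47 in 3D (adjusted p = 0.000483), with 3.06 in 2D without D2A1 2D replicate 3.

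The monocyte attractants Ccl2 and Ccl7 both bind Ccr2. Ccl7 was lower in D2.OR in 2D, and Ccl2 was not called between the lines in the edgeR fit with the batch term and the filter. Both lie on chromosome 11 in a group of 5 members (GRCm38 chr11:82035571-82116799), of which Ccl8 had at most 20 counts in a library, Ccl11 at most 19 and Ccl12 none. Ccl2 stood at 49.8, 269.7 and 144 TPM in D2A1 2D, 75.6, 919 and 587 in D2A1 3D, 48.9, 58.7 and 45.4 in D2.OR 2D, and 157, 96.2 and 71.4 in D2.OR 3D. Batches 2 and 3 of D2A1 were above D2.OR in both cultures, while in batch 1 the lines were near level in 2D and D2.OR was above in 3D, and the difference missed the threshold in 2D (-1.20 ± 0.73, adjusted p = 0.201) and in 3D (-1.94 ± 0.78, adjusted p = 0.0618). Without batch 1 it was -1.79 in 2D (adjusted p = 5.75e-05) and -3.18 in 3D (adjusted p = 5.04e-06), where 25.2% and 27.2% of all genes were lower (53.8% in either direction in 2D). It was called in 2D without D2A1 3D replicate 1 (-1.35, 0.0446). In 3D it was called without D2A1 3D replicate 1 (-2.74, 0.00438), D2.OR 3D replicate 1 (-2.79, 0.0112) or D2A1 2D replicate 1 (0.0432), with DESeq2 (0.0328), with no filter (0.0446) and with no batch term (0.0295).

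Ccl7 had 4.28, 76.5 and 21.8 TPM in D2A1 2D, 10.3, 132 and 64.0 in D2A1 3D, 1.66, 4.69 and 3.94 in D2.OR 2D, and 13.4, 9.50 and 6.79 in D2.OR 3D. It was lower in D2.OR in 2D (-2.70 ± 0.83, adjusted p = 0.0231), with groups that overlapped only through D2A1 replicate 1, and the call was lost without any 1 of 5 of the 6 libraries of 2D, all but D2A1 2D replicate 1 (adjusted p 0.0537 to 0.105, and the value was -1.99 without D2A1 2D replicate 2). In 3D the difference was -2.05 ± 0.83 (adjusted p = 0.0634). It was called in 3D without batch 1 (-3.56, adjusted p = 0.00016), without D2.OR 3D replicate 1 (-3.39, 0.00145), D2A1 3D replicate 1 (-2.78, 0.024), D2A1 2D replicate 1 (0.0299) or D2A1 2D replicate 2 (0.0498), and with DESeq2 (0.0365), limma on log2(TPM + 1) (0.038) or log2(TPM + 0.1) (0.0331), no filter (0.0472) and no batch term (0.038).

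Among the other CC ligands, Ccl5, Ccl17, Ccl20 and Ccl28 were higher in D2.OR in both cultures. Ccl5, a ligand of several CC receptors, Ccr1 and Ccr3 among them, stood at 25.5, 21.05 and 23.4 TPM in D2A1 2D, 30.1, 15.8 and 15.4 in D2A1 3D, 97.7, 33.2 and 63.0 in D2.OR 2D, and 44.2, 48.9 and 54.8 in D2.OR 3D. Every D2.OR library was above every D2A1 library of the same culture, by 1.54 ± 0.30 in 2D (adjusted p = 0.0029) and 1.31 ± 0.30 in 3D (adjusted p = 0.00558).

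Ccl20, the ligand of Ccr6 that draws memory lymphocytes and dendritic cells to epithelia, stood at 0.74, 0.00 and 0.00 TPM in D2A1 2D, 2.45, 1.15 and 1.46 in D2A1 3D, 4.72, 4.50 and 1.56 in D2.OR 2D, and 23.5, 10.75 and 8.21 in D2.OR 3D. The 4 groups kept this order of means, and the lines were apart in both cultures (4.24 ± 0.80, adjusted p = 0.00224 in 2D, and 2.94 ± 0.64, adjusted p = 0.00414 in 3D). All 15 counts of D2A1 2D came from replicate 1, without which the 2D value was 9.19, and leaving out D2A1 2D replicate 2 also moved it by over 1.5 times. Ccl28, a mucosal ligand of Ccr10, had 0.61, 1.31 and 0.43 TPM in D2A1 2D, 0.71, 0.64 and 0.40 in D2A1 3D, 2.24, 1.68 and 1.43 in D2.OR 2D, and 3.53, 1.69 and 1.91 in D2.OR 3D. The groups did not overlap, with changes of 1.35 ± 0.37 (adjusted p = 0.0132) and 2.00 ± 0.37 (adjusted p = 0.00166). In 2D the value was 1.95 without D2A1 2D replicate 2. It was not called in 2D without D2A1 2D replicate 3 (adjusted p = 0.0575), nor without batch 1 or batch 3.

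Ccl17, a ligand of Ccr4 on T cells, had 24, 3 and 2 counts in D2A1 2D, 18, 5 and 1 in D2A1 3D, 114, 38 and 12 in D2.OR 2D and 138, 19 and 13 in D2.OR 3D. It was highest in batch 1 in every group, and the lines overlapped although D2.OR was higher in each batch, by 2.63 ± 0.46 in 2D (adjusted p = 0.00152) and 2.84 ± 0.48 in 3D (adjusted p = 0.000999). Ccl9, a ligand of Ccr1, stood at 3.05, 1.56 and 1.0 TPM in D2A1 2D, 1.04, 0.11 and 0.43 in D2A1 3D, 2.77, 1.25 and 0.71 in D2.OR 2D, and 6.75, 1.08 and 0.73 in D2.OR 3D. The lines overlapped in 2D (0.27 ± 0.41, adjusted p = 0.609), and in 3D D2.OR was higher in every batch, with overlap between batches (3.12 ± 0.46, adjusted p = 0.000491).

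Ccl27a, a skin-type ligand of Ccr10, had 9, 13 and 15 counts in D2A1 2D, 10, 2 and 0 in D2A1 3D and none in D2.OR. D2A1 2D alone carried it past the filter. In 2D its level in D2.OR was lower by at least 3.67-fold, set against 3 counts per library (fitted -6.95 ± 1.77, adjusted p = 0.025), and in 3D by at least 1.16-fold, where it was not called (adjusted p = 0.105). The 2D call was lost without D2A1 2D replicate 2, D2.OR 2D replicate 1 or D2.OR 2D replicate 2 (adjusted p 0.0519 to 0.0832), and the fitted value moved by over 1.5 times without D2A1 2D replicate 1 or 3, to -8.61 at the widest. Ccl27a overlaps Il11ra1 on the opposite strand, which had a mean of 34.3 ± 3.1 TPM (SD, n = 3) in D2A1 2D and 11.1 ± 6.4 in D2.OR 2D. Ccl25, a thymic and intestinal ligand of Ccr9, was nearly level, at 9.94 to 19.1 TPM over the 12 libraries, and edgeR called it in no comparison. It was lower in D2.OR in 2D with scaling by the library total alone (-0.42, adjusted p = 0.0239) and with limma on log2(TPM + 1) (0.0226) or log2(TPM + 0.1) (0.0194), and higher in 3D than in 2D in D2.OR with DESeq2 (0.42, adjusted p = 0.021). It overlaps Elavl1 on the opposite strand, whose group means ran from 71.1 to 88.5 TPM, and had counts that were not whole. The strand setting of the counting is not given in the sources used here, so reads of such opposite-strand partners may not be separated.

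The receptors other than Ackr3 were low throughout, and most of the differences called among them rest on few counts. Ccr1, a receptor of inflammatory CC ligands, had 1, 188 and 45 counts in D2A1 2D, 1, 282 and 201 in D2A1 3D, 1, 16 and 8 in D2.OR 2D, and 1, 5 and 26 in D2.OR 3D. All 4 libraries of batch 1 were at 1 count, and in batches 2 and 3 D2A1 was above D2.OR each time. The change was -2.80 ± 0.84 in 2D (adjusted p = 0.021) and -3.51 ± 0.83 in 3D (adjusted p = 0.0061). In 2D it was lost without D2A1 2D replicate 2, at -1.68, or without D2.OR 2D replicate 2 or 3 (adjusted p 0.107 to 0.204), with limma on log2(TPM + 1) (0.168) and with limma on log2(TPM + 0.1) (0.134). It moved by over 1.5 times without D2A1 2D replicate 3, and in 3D without D2.OR 3D replicate 2 or 3, to -5.44 at the widest.

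Ccr2, the receptor of Ccl2 and Ccl7, had 1, 0 and 2 counts in D2A1 2D, 7, 13 and 11 in D2A1 3D, 13, 28 and 34 in D2.OR 2D, and 29, 36 and 46 in D2.OR 3D. The lines did not overlap, with a ratio of 24.6 in 2D (exact 95% interval 8.11 to 122, counting error only) and a log2-fold change of 1.96 ± 0.46 in 3D (adjusted p = 0.00604). The fitted 2D value was 4.51 ± 0.65 (adjusted p = 0.00047), with 3.82 without D2A1 2D replicate 2 and a move of over 1.5 times also without D2A1 2D replicate 3. Cxcr3, the receptor of Cxcl9 and Cxcl10, had 0, 20 and 5 counts in D2A1 2D, 4, 14 and 26 in D2A1 3D and none in D2.OR but for 1 in 3D replicate 3. In 2D the D2.OR level was lower by at least 2.3-fold (adjusted p = 0.0193), and the ratio in 3D was 40.5 (6.9 to 1630, adjusted p = 0.00929).

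These Cxcr3 calls were lost without D2A1 2D replicate 2, D2.OR 2D replicate 2 or D2.OR 2D replicate 3 in 2D (adjusted p 0.0558 to 0.0776), without D2A1 3D replicate 3 or D2.OR 3D replicate 2 in 3D (0.0519 and 0.0547), with limma on log2(TPM + 1) in both and, in 2D, with limma on log2(TPM + 0.1). The fitted values of -5.84 and -5.01 ran from -6.61 to -4.21 and from -6.74 to -4.08 over the left-out libraries, and moved by over 1.5 times without D2A1 replicates 2 or 3 of either culture, D2.OR 2D replicate 1, or D2.OR 3D replicates 2 or 3. Ccr10, the receptor of Ccl27a and Ccl28, was at 0.80, 0.71 and 0.88 TPM in D2A1 2D, 0.94, 0.65 and 0.70 in D2A1 3D, 1.16, 0.70 and 0.35 in D2.OR 2D, and 1.83, 1.71 and 0.96 in D2.OR 3D. It was called in 3D alone (0.91 ± 0.34, adjusted p = 0.0488), and this was lost in 8 of the 12 fits that left out a library, all 6 of 3D and D2A1 2D replicate 2 and D2.OR 2D replicate 2 (adjusted p 0.0636 to 0.182), with scaling by the library total alone (0.0738) and without the filter (0.0652). Its opposite-strand neighbour Cntnap1 had means of 4.26 ± 0.97 TPM in D2.OR 3D and 8.32 ± 2.86 in D2A1 3D (SD, n = 3).

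Cxcr5, the B-cell receptor of Cxcl13, was lower in D2.OR in 3D, with 24, 36 and 20 counts in D2A1 and 5, 8 and 11 in D2.OR (-1.64 ± 0.50, adjusted p = 0.0206). The call was lost without D2A1 3D replicate 2, D2.OR 3D replicate 1 or D2.OR 3D replicate 2 (adjusted p 0.0615 to 0.113) and with limma on log2(TPM + 1) (0.0739). Cxcr6, the receptor of Cxcl16, had 6 to 40 counts and Ccr7, the lymph-node homing receptor, 0 to 14. Neither was called between the lines on all 12 libraries, and Ccr7 was called higher in D2.OR in 2D without D2A1 2D replicate 3 (2.12, adjusted p = 0.0318, against 1.04).

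Ackr3, which takes up Cxcl12, was the 1 receptor gene with a level like those of the ligands. It measured 8.66, 93.25 and 40.5 TPM in D2A1 2D, 10.9, 63.4 and 39.6 in D2A1 3D, 10.8, 29.7 and 31.7 in D2.OR 2D, and 7.52, 14.4 and 19.3 in D2.OR 3D. Batch 1 was the lowest in every group, and the lines overlapped. D2.OR was lower in each batch of 3D (-1.22 ± 0.39, adjusted p = 0.0253), a call lost without any 1 of the 4 libraries of batches 2 and 3 in 3D (adjusted p 0.058 to 0.0983), and the 2D difference was -0.53 ± 0.39 (adjusted p = 0.282).

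Ackr2, a scavenger of inflammatory CC ligands, had 12, 14 and 9 counts in D2A1 2D and 5, 2 and 2 in D2.OR 2D (-1.97 ± 0.56, adjusted p = 0.0168), with 5 to 19 counts in 3D and no call there. Ackr4, which takes up Ccl19, Ccl21 and Ccl25, had 7, 17 and 14 counts in D2A1 2D and 5, 6 and 6 in D2.OR 2D (-1.08 ± 0.35, adjusted p = 0.0276), with 4 to 14 in 3D and no call there (adjusted p = 0.0776). With scaling by the library total alone it was called in 3D (-0.9, adjusted p = 0.0482). Of these, Ackr2 lost its call without D2A1 2D replicate 1 or 2 or D2.OR 2D replicate 2 or 3 (adjusted p 0.0511 to 0.0737) and with limma on log2(TPM + 1) (0.0941). Ackr4 lost it without any 2D library but D2A1 2D replicate 1 (0.0734 to 0.103), with DESeq2 (0.121), with limma on either scale (0.189 and 0.133) and without the filter (0.132).

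The comparison of 3D with 2D asks what the gel culture changed within a line. In D2A1, 3 members rose and 1 fell (of 29 tested), where 1.37% of all tested genes rose and 2.12% fell (3.48% in either direction). Cxcl5 and Cxcl1 rose by 3.91 ± 0.69 (adjusted p = 0.0354) and 3.75 ± 0.63 (adjusted p = 0.0327) on the log2 scale, Cxcl16 by 1.28 ± 0.26 (adjusted p = 0.042), and Ccl9 changed by -2.39 ± 0.47 (adjusted p = 0.0399). For each of these the direction was the same in all 3 batches: 1.66, 4.12 and 4.56 for Cxcl1 in batches 1 to 3, 2.43, 3.78 and 4.79 for Cxcl5, 0.99, 1.45 and 1.09 for Cxcl16, and -1.81, -3.27 and -1.71 for Ccl9 (differences of log2 CPM). An unadjusted p under 0.05 was found for 9 members, a share near the 31.4% of all genes that had one. The other 5 of the 9 also kept their direction in all batches but did not pass the test: Ccl20 (3.11 ± 0.82, adjusted p = 0.0594), Cxcl3 (1.91 ± 0.51, 0.061), Cxcl2 (2.47 ± 0.90, 0.103), Ccl2 (1.87 ± 0.72, 0.117) and Ccr2 (3.00 ± 0.70, 0.0513). Ccr2 went from 3 to 31 counts over the 3 libraries, a ratio of 8.53 (exact 95% interval 2.66 to 43.6, counting error only).

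DESeq2 called 8 members for culture in D2A1, where it called 21.3% of all genes. They were the 4 edgeR calls with Ccl20 (adjusted p = 0.00124), Cxcl3 (0.00147), Ccr2 (0.0131) and Cxcl2 (0.0146). Ccl20 was also called with limma on log2(TPM + 0.1) (0.0265) or log2(TPM + 1) (0.0469) and with no filter (0.0361). None of the 4 edgeR calls in D2A1 was kept throughout. Without the batch term no member was called, and the adjusted p was 0.0869 for Cxcl5, 0.0658 for Cxcl1, 0.066 for Cxcl16 and 0.253 for Ccl9. A fit on the 6 D2A1 libraries alone called none either (0.0986, 0.142, 0.177 and 0.159), and limma on log2(TPM + 1) lost Cxcl16 (0.254) and Ccl9 (0.0761), as limma on log2(TPM + 0.1) did Cxcl16 (0.0758). All 4 were lost without D2A1 2D replicate 2 or 3, D2A1 3D replicate 2 or 3, D2.OR 2D replicate 2 or 3, or D2.OR 3D replicate 3. Ccl9 and Cxcl16 were also lost without D2.OR 3D replicate 2, and Cxcl16 without D2.OR 3D replicate 1. The adjusted p then ran from 0.0616 to 0.189 for Cxcl1, 0.064 to 0.199 for Cxcl5, 0.0514 to 0.21 for Cxcl16 and 0.0643 to 0.199 for Ccl9. The log2-fold change of Cxcl1 moved to 4.37 without D2A1 3D replicate 1 and to 3.15 without D2A1 3D replicate 2. Without batch 1, in contrast, 14 of 32 tested members were called in D2A1 (11 higher, 3 lower, against 17.4% and 18.9% of all genes), among them Cxcl1 at 4.30 (adjusted p = 0.000275), Cxcl5 at 4.21 (0.000359), Ccl2 at 2.05 (0.000217) and Ccl20 at 8.09 (0.00455). Without batch 1 the calls of Ccl20, Ccr2 and Ccl8 rest on D2A1 2D libraries with at most 2 counts each.

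In D2.OR none of the 29 members passed the test between 3D and 2D (edgeR, either direction, where 1.62% of all genes did, 0.838% higher and 0.785% lower), with 5 at an unadjusted p under 0.05 against 17.6% of all genes, and DESeq2 called 1, Ccl25, where it called 7.36% of all genes. Those 5 were Ccl20 (1.82 ± 0.61, adjusted p = 0.172), Ccl7 (1.92 ± 0.83, 0.273), Ccl25 (0.41 ± 0.13, 0.151), Ccr10 (1.0 ± 0.35, 0.182) and Ccr7 (-2.10 ± 0.65, 0.147), each with 1 direction in all 3 batches. Ccl20 was called in D2.OR with limma on log2(TPM + 1) (1.68, adjusted p = 0.0177) and in the fit on the 6 D2.OR libraries (1.89, 0.0308). Cxcl1 and Cxcl5, which rose in D2A1, differed by 0.57 ± 0.56 (adjusted p = 0.638) and 0.27 ± 0.61 (adjusted p = 0.855). Without batch 1, 1 of 32 members was called in D2.OR, Ccl2 at 0.66 (adjusted p = 0.0292), where 3.69% of all genes were higher and 4.7% lower (8.38% in either direction).

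**Figure D4:**
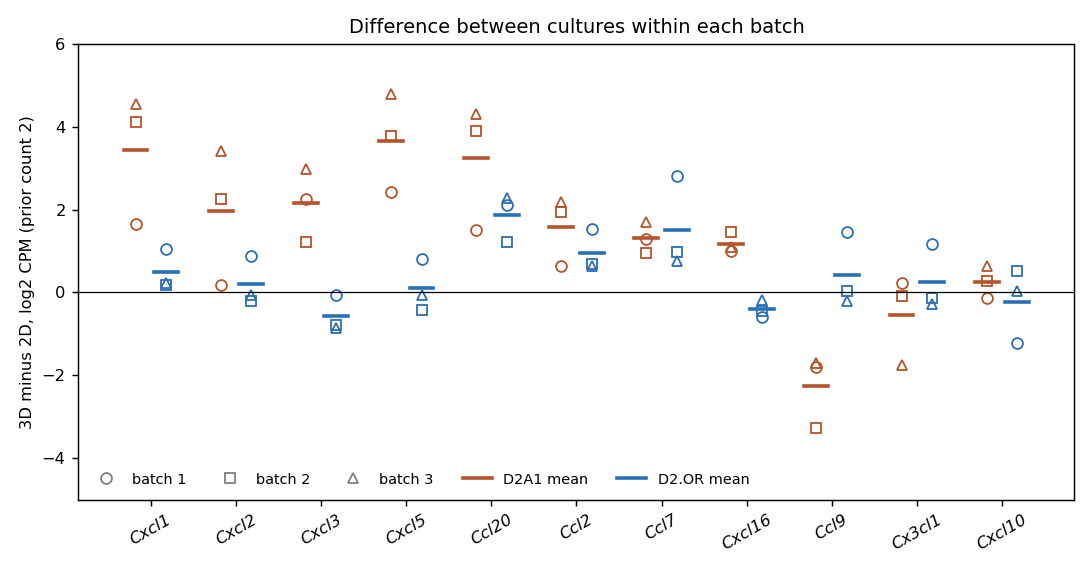
Difference of 3D from 2D in log2 CPM (prior count 2) within each batch for 11 ligands, D2A1 in brown and D2.OR in blue, with circles, squares and triangles for batches 1 to 3 and a line at their mean. The D2A1 points of Cxcl1 and Cxcl5 lie from 1.66 to 4.79 and those of D2.OR from -0.43 to 1.04, and for Ccl9 the D2A1 points lie from -3.27 to -1.71.

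Whether the change with culture differed between the lines was tested as the interaction. No member passed it in edgeR (0.0238% of all genes did, 0.0178% higher and 0.00594% lower), 7 had an unadjusted p under 0.05 against 17.8% of all genes, and DESeq2 called 5 where it called 5.81% of all genes. The DESeq2 calls were Cxcl1 (-3.16, adjusted p = 0.0023), Cxcl3 (-2.47, 0.0132), Cxcl5 (-3.62, 0.0113), Cxcl16 (-1.67, 0.00247) and Ccl9 (2.89, 0.00193). In edgeR these were -3.19 ± 0.83 (adjusted p = 0.145), -2.42 ± 0.69 (0.155), -3.64 ± 0.90 (0.129), -1.68 ± 0.33 (0.0892) and 2.85 ± 0.61 (0.108). A negative value means a lower log2-fold change with culture in D2.OR than in D2A1, and need not mean a rise in D2.OR. For Cxcl3 and Cxcl16 the D2.OR mean was lower in 3D than in 2D (76.0 against 127 TPM, and 8.05 against 10.4 TPM). The sign was the same in all 3 batches for each of the 5, from -0.62 to -4.32 for Cxcl1 and from 1.51 to 3.31 for Ccl9. Without batch 1, edgeR called 8 of 32 members (1 higher, 7 lower, against 9.17% and 8.64% of all genes): these 5 with Cxcl2 (-2.85, adjusted p = 0.0165), Ccl2 (-1.38, 0.00559) and Ccl20 (-6.42, 0.0431). Without batch 2, and likewise without batch 3, the interaction called 0% of all genes. With edgeR on all 12 libraries a difference between the lines in their response to culture was thus not shown for any member.

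Batch 1 against the mean of batches 2 and 3, over all 4 groups, gave 5 members higher and 5 lower of 29, where 8.48% of all genes were higher and 4.8% lower. Higher in batch 1 were Ccl17 (2.76 ± 0.31, adjusted p = 0.00179), Cxcl9 (2.51 ± 0.46, 0.00998), Ccl9 (2.29 ± 0.30, 0.00316), Cx3cl1 (1.75 ± 0.32, 0.01) and Cxcl10 (0.92 ± 0.25, 0.0413). Lower were Ccr1 (-6.13 ± 0.90, 0.00443), Cxcl3 (-3.17 ± 0.42, 0.00329), Cxcl5 (-2.61 ± 0.54, 0.0154), Ccr7 (-2.53 ± 0.57, 0.0212) and Ackr3 (-1.95 ± 0.32, 0.0066). Ccl17, Cxcl9, Ccl9 and Cx3cl1 were highest in batch 1 in all 4 groups, as was Ccl20, which edgeR did not call and DESeq2 did (adjusted p = 0.0205), and Ccr1, Cxcl3, Cxcl5, Ccr7 and Ackr3 lowest, as were Cxcl1 and Ackr4, which edgeR did not call (adjusted p = 0.0609 and 0.131) and of which DESeq2 called Cxcl1 (adjusted p = 0.00126). Cxcl10 was not called without any 1 of 10 of the 12 libraries, all but D2.OR 3D replicates 1 and 2 (adjusted p 0.0537 to 0.131), or with limma, and Ccr7 not without D2A1 3D replicate 1 or 2 or D2.OR 2D replicate 1 or 2 (0.0504 to 0.0732) or with limma on log2(TPM + 1). Without D2.OR 3D replicate 1 Cxcl5 moved to -3.24, without D2A1 3D replicate 1 Ccr1 moved to -5.0, and with limma on log2(TPM + 1) Ccr1 was not called (0.0865).

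A list of 44 other genes of the chemokine system (the ligands Pf4 and Ppbp, the receptors Xcr1 and Ccrl2, G proteins, phospholipases, arrestins, Rac activators, proteases and proteoglycans) held 35 that passed the filter. Of these, 15 were higher and 7 lower in D2.OR in 2D, and 16 higher and 8 lower in 3D, against the shares of all genes given above. Ccrl2, a receptor-like protein that presents chemerin, had the smallest p in both cultures, with 0.31 to 0.51 TPM in D2A1 2D, 0.24 to 0.42 in D2A1 3D, 10.2 to 14.8 in D2.OR 2D and 15 to 23.0 in D2.OR 3D. The changes were 5.36 ± 0.32 (adjusted p = 2.72e-06) and 5.65 ± 0.32 (adjusted p = 1.85e-06). Plcb1, a phospholipase C, was higher by 1.25 ± 0.14 and 1.72 ± 0.14 (adjusted p = 9e-05 and 1.41e-05), and Gnai2, an inhibitory G-protein subunit, by 0.99 ± 0.12 in 2D (adjusted p = 0.000236). Plcb3, another phospholipase C, was lower in 3D (-0.83 ± 0.10, adjusted p = 0.000164), and Gng2, a G-protein gamma subunit, ran from 1.63 to 10.1 TPM in D2A1 and from 0.00 to 0.20 in D2.OR (fitted -6.78 and -7.45, adjusted p = 0.000141 and 7.68e-05). Ppbp, an ELR ligand whose symbol falls outside the rule for members and which was singled out after its values were seen, lies near Cxcl5 and ran from 0.03 to 0.40 TPM in D2A1 and from 0.25 to 1.51 in D2.OR (2.88 ± 0.48, adjusted p = 0.00115 in 2D, and 1.93 ± 0.45, adjusted p = 0.0058 in 3D).

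Of the 35 tested genes of that list, 3 were called for culture in D2A1 and 1 in D2.OR, where 3.48% and 1.62% of all genes were called. In D2A1 the protease Mmp9 rose by 2.14 ± 0.42 (adjusted p = 0.0404) and Pik3r5, a subunit of the PI3K that G proteins switch on, by 1.56 ± 0.32 (adjusted p = 0.042), while the protease Mmp2, which trims several chemokines, changed by -4.31 ± 0.61 (adjusted p = 0.0207), from 2.66 to 19.0 TPM in 2D to 0.35 to 0.75 in 3D. In D2.OR the Rac activator Vav3 changed by -1.47 ± 0.18 (adjusted p = 0.011). The interaction called none of the list in edgeR, with 8 at an unadjusted p under 0.05 (17.8% of all genes), and DESeq2 called 2. These culture calls were lost in several of the fits that left out a library, in which the number called ran from 0 to 10 in D2A1 and from 0 to 2 in D2.OR.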

How the data were processed

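RNA from 12 cultures in 4 groups was sequenced by the authors. Per the study's methods, reads with undetermined bases were dropped by a custom script and reads were quantified against GRCm38 with the GENCODE annotation. The submitters' processing notes name FastQC 0.11.4, Trimmomatic 0.32, STAR 2.5.3 and RSEM 1.3.0. The deposited values are RSEM expected counts, which need not be whole (10.7% to 11.8% of genes per library were not), and TPM, which the authors scaled for gene length and library size. Deposited FPKM were not used. The strand setting is not given in the sources used here. The TPM of the series table and of the library files differed by 0.

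Expected counts were rounded and tested with edgeR 4.0.16 (R 4.3.3; TMM scaling, filterByExpr, quasi-likelihood test) in 1 model of group and batch over all 12 libraries, with Benjamini-Hochberg adjusted p under 0.05 over 16823 genes as the call. Biological variation, as edgeR's common coefficient, came to 21.2%. The study itself used DESeq2 with terms for line, culture, batch and their interaction. Levels between genes were compared in TPM. The tests were checked on simulated counts. Alternatives were DESeq2 1.42.0, limma 3.58.1 on log2(TPM + 1) and log2(TPM + 0.1), other scalings and filters, no batch term, only the 6 libraries compared, and leaving out each library or batch. Batch differences are log2 CPM with a prior count of 2.

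The replicate number marks a batch. Deviations from the group means correlated by 0.076 to 0.511 (median 0.267, 18 pairs) between libraries of the same number and by -0.432 to 0.296 (median -0.195, 36 pairs) between the others. Each group was centred on its own mean, so the values of the others follow in part from those of the same number. No source used here says that libraries of a group came from separately thawed cultures, so p-values measure the spread between these libraries.

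Members and lists were chosen with earlier results of these data known. Each member with a mean CPM of at least 1 in a group, or called in any contrast, is named with its values, and the rest by their range. From the signalling list the 4 smallest p in each line contrast and every culture call are named. Cxcl11 is annotated here as a polymorphic pseudogene and is no member. Figures were drawn with matplotlib 3.10.9. 1 member is not reported here by name.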

Additional observations from a re-analysis of the deposited data

Results flagged for a closer look

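Cxcl11, the third interferon-induced ligand of Cxcr3, stands outside the members because its annotation is not protein-coding, and it had counts above the 3 that a count of 0 allows. It had 11, 2 and 6 counts in D2A1 2D, 15, 0 and 0 in D2A1 3D, 146, 18 and 30 in D2.OR 2D, and 37, 15 and 12 in D2.OR 3D. The highest was D2.OR 2D replicate 1. The difference between the lines was not tested for this gene.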

How the results depend on the processing

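Among the fold changes of members called on all 12 libraries, 995 alternative values kept direction and side of the threshold, 167 kept direction but no longer passed it, and 0 reversed. Of 2690 alternative values of the 122 that were not called, 131 changed sign and 101 passed the threshold, 1 of them with a changed sign (Cxcl2 between the lines in 3D without batch 1, -1.11). With at least 10 counts in every library, 13 members were left to test. Of these, 9 were called in 2D and 8 in 3D between the lines, and 5 for batch 1. The shares of all genes called were then 50.8%, 54.9% and 14.2%. Leaving out a library or a batch gave 12 to 22 calls in 2D, 12 to 22 in 3D, 8 to 12 for batch 1, 0 to 1 for culture in D2.OR, 0 to 14 for culture in D2A1 and 0 to 8 for the interaction, where the shares of all genes called ran from 24.9% to 53.8%, 31.0% to 59.5%, 7.61% to 20.6%, 0% to 8.38%, 0% to 36.3% and 0% to 17.8%. DESeq2 called 1 member for culture in D2.OR, 8 for D2A1 and 5 for the interaction, where it called 7.36%, 21.3% and 5.81% of all genes. For D2.OR, limma on log2(TPM + 1) called 1 and the fit on 6 libraries 2, where 1.69% and 5.16% of all genes were called. For D2A1, dropping the filter gave 7 and the fit on 6 libraries 0, where 3.75% and 0.0981% of all genes were called. The cause was not tested.

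Without the replicate block, 17 members were called in 2D and 14 in 3D between the lines, and 0 for culture in D2A1, against 43.9%, 47.8% and 0.309% of all genes. The signalling list had 1 call for culture in D2A1 without the block.

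For the signalling list, leaving out a library or batch gave 12 to 27 calls in 2D, 16 to 26 in 3D, 0 to 5 for culture in D2.OR, 0 to 11 for D2A1 and 0 to 6 for the interaction, beside the shares of all genes given above. DESeq2 gave 3, 10 and 2 calls for the last 3, the fit on 6 libraries 3 for D2.OR and 0 for D2A1, and dropping the filter 5 for D2A1. By a mean TPM of at least 0.1 or 1, 34 or 21 members were detected. The median over all genes shifted by -0.164 in 2D and -0.101 in 3D with the library total alone, and by -0.11 in 2D and 0.137 in the interaction with limma on log2(TPM + 0.1). With the library total alone 3394 genes were higher and 5399 lower in 2D, against 4275 and 4103. Most receptors had under 50 counts per library, which limits what could be detected for them.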
